A study of Mus musculus with 2 samples.

Results

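Endothelial adhesion and junction genes were followed through the single cells of mouse lungs given control or tumor conditioned media. The 10 genes were chosen by name out of 32286 measured features, each matching 1 feature. They comprised 4 inducible leukocyte adhesion genes (Icam1, Vcam1, Sele and Selp), 5 constitutive genes of the endothelial surface and its junctions (Pecam1, Cdh5, Esam, Jam2 and Icam2), and Selplg, the leukocyte ligand of the selectins.

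Whole lungs came from female BALB/c mice 9 to 10 weeks old that had received i.v. injections for 3 weeks. Control media (CM) went to 1 group. The other group received tumor conditioned media (TCM), medium in which 4T1 mouse breast tumors had been kept. Single-cell RNA sequencing gave 1 library per group, and the number of mice behind a library is not given in the sources used here. A difference between CM and TCM therefore cannot be told apart from a difference between libraries, no test was possible, and all intervals below are 95% intervals that cover counting error only.

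Circulating leukocytes are caught by vessel walls in steps. Selectins on activated endothelium (E-selectin from Sele, P-selectin from Selp) bind sugar-bearing ligands such as PSGL-1, the product of Selplg, and let cells roll. Integrins of the leukocyte then hold on to ICAM-1 and VCAM-1, whose genes respond to inflammatory NF-κB signaling, and cells pass between endothelial cells that are held together by VE-cadherin (Cdh5), PECAM-1, ESAM and JAM-B (Jam2). ICAM-2 is present on resting endothelium. In the lung, leukocytes are held largely in capillaries, and lung capillary endothelium is known to carry ICAM-1 at rest, while P-selectin is known from larger vessels.

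Promoters are shown for the members found in the RefSeq promoter table of build GRCm38.p6, since NF-κB sites close to the start are known features of inducible adhesion genes. Icam1, Sele and Selp, 3 of the 10 genes, had an entry. Vcam1, Pecam1, Cdh5, Esam, Jam2, Icam2 and Selplg are named only. Each line gives the 250 bases before the start site, 5′ to 3′ on the strand of the gene, with matches to the NF-κB-like letters GGNNNTTCC on either strand in capitals.
Icam1: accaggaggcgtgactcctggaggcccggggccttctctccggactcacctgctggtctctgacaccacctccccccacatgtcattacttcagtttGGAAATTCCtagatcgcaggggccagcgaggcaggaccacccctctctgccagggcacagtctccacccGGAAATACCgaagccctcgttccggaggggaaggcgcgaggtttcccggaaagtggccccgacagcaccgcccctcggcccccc
Sele: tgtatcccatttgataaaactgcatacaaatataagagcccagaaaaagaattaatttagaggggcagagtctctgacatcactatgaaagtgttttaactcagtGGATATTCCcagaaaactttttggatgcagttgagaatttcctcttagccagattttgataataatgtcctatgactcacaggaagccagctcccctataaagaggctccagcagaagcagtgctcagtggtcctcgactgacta
Selp: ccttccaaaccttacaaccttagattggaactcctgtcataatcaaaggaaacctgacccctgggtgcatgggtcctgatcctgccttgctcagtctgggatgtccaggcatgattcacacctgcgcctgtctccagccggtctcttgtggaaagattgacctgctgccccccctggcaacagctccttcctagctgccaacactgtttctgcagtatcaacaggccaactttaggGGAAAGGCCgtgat
These stretches lie at chr9:21015690-21015939, chr1:164047984-164048233 and chr1:164115014-164115263, all on the plus strand. Icam1 held 2 matches, from base -153 to -145 and from -84 to -76 before the start site. For Icam1 this is the RefSeq start site, just after chr9:21015939. The gene coordinates listed below, from another annotation, start further on at chr9:21015985. Sele held 1 match, from -145 to -137, together with the AP-1-like letters TGANTCA and the TATA-like letters TATAAA. Selp held 1 match close to its start site, from -14 to -6, and also 1 match to TGANTCA. Among the same 250 bases of all 32851 promoters in the table, 15.7% held GGNNNTTCC, 6.75% TGANTCA and 12.4% TATAAA on either strand, so a match is a description of these letters and no evidence of a bound site.

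The genes lie on GRCm38 chromosomes 9 (Icam1, chr9:21015985-21028817, and Esam, chr9:37528078-37538319), 1 (Sele, chr1:164048234-164057677, and Selp, chr1:164115264-164150026), 3 (Vcam1, chr3:116109949-116129688), 11 (Pecam1, chr11:106654217-106750628, and Icam2, chr11:106377656-106388075), 8 (Cdh5, chr8:104101625-104144511), 16 (Jam2, chr16:84774123-84825928) and 5 (Selplg, chr5:113818536-113832644). All are protein-coding. Icam1, Vcam1, Selp and Cdh5 are overlapped by annotated noncoding genes on the other strand and Jam2 by an rRNA gene on its own strand, and how the counting treated strand is not given in the sources used here.

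Total depth was 31944151 UMIs for CM and 36648719 for TCM. After droplets under 500 UMIs, under 200 genes or over 10% mitochondrial UMIs had been dropped, 7988 CM and 7707 TCM cells remained, and 93 barcodes occurred among the kept cells of both libraries. Cells were placed in 22 lung classes by marker genes that excluded the members. No class led clearly in 1312 CM (16.4%) and 986 TCM (12.8%) cells, called cells between classes below. A further 528 CM and 301 TCM cells had too few markers, and neither kind entered a class. Endothelial-gated cells numbered 1775 in CM (22.2% of cells) and 1729 in TCM (22.4%), with median depths of 2048 and 2688 UMIs. All 14 endothelial markers were detected in them, at a summed level of 1901 UMIs per 100000 (CP100k) in CM and 2043 in TCM, with a ratio of 0.10. Neutrophil-gated cells made up 2.93% of CM and 18.4% of TCM cells.

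Icam1, the integrin ligand for firm adhesion, was read at 2842 UMIs in the CM and 3925 UMIs in the TCM endothelial cells. These sums corresponded to 55.2 CP100k (interval 53.2 to 57.3) in CM and 64.2 CP100k (62.2 to 66.3) in TCM. The intervals did not overlap, and the TCM to CM ratio was 0.22 on the log2 scale (0.15 to 0.29). The ratio depended on how cells were weighted. With every cell thinned to 1000 UMIs, the level was 52.9 CP100k in CM and 68.6 in TCM, with a ratio of 0.38, and the mean of the per-cell levels gave 0.46. Scaling to the endothelial gate markers lowered the Icam1 ratio to 0.11. At least 1 Icam1 UMI was found in 29.3% of the thinned CM cells and 33.4% of the thinned TCM cells, after 469 and 332 shallower cells had been left out. Without thinning the shares were 40.7% and 52.1%. Among thinned B-gated cells, 19 of 522 in CM and 9 of 259 in TCM had an Icam1 UMI. Cells between classes, of whatever kind, held 2798 Icam1 UMIs in CM and 2422 in TCM. Their Icam1 ratio was -0.05 (-0.13 to 0.03), beside 0.14 to 0.27 for the 5 constitutive genes in the same cells.

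Vcam1, the ligand of the integrin VLA-4, was read at 255 UMIs in CM and 328 in TCM. Its level was 4.96 CP100k (4.37 to 5.60) in CM and 5.37 CP100k (4.80 to 5.98) in TCM, and the log2 ratio of 0.11 had an interval that included 0 (-0.13 to 0.36). Few cells carried it: the 10 highest cells held 47.8% of the Vcam1 UMIs in CM and 60.4% in TCM. Of the thinned cells, 2.68% in CM and 3.01% in TCM had a Vcam1 UMI, against 0 of 522 CM B-gated cells, which allows a share of up to 0.575%, and 2 of 259 TCM B-gated cells.

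Sele, which activated endothelium makes and resting endothelium largely lacks, had 12 UMIs in CM endothelial cells and 86 in TCM. The level was 0.233 CP100k (0.121 to 0.407) in CM and 1.41 CP100k (1.13 to 1.74) in TCM, which gave a ratio of 2.59 (1.71 to 3.60). Few cells carried these UMIs. The 12 CM UMIs lay in 4 cells, and the 86 TCM UMIs lay in 8 cells, of which 1 held 37 UMIs and another 35. With the 2 highest cells left out of each library, 2 UMIs in 2 CM cells and 14 UMIs in 6 TCM cells remained, a ratio of 2.56 with a wide interval (0.44 to 5.74). Leaving out the 2 TCM cells alone, a removal that can only lower the ratio, gave -0.02. Before thinning, cells with a Sele UMI were 0.225% of the CM and 0.463% of the TCM endothelial cells, with overlapping intervals. Among thinned B-gated cells, 0 of 522 and 0 of 259 had one.

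**Figure D1:**
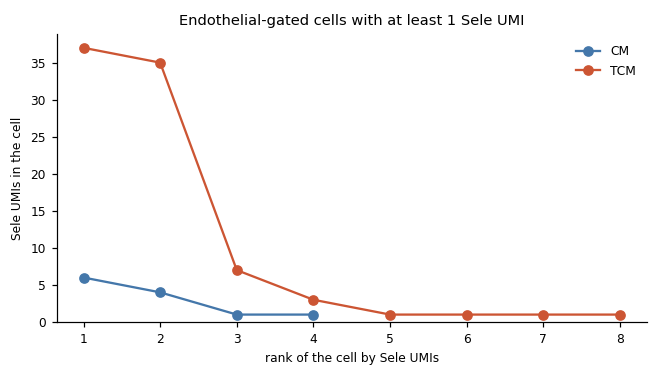
Sele UMIs (y axis) in each endothelial-gated cell that had any, ordered by rank (x axis), for CM and TCM. The 2 highest TCM cells, with 37 and 35 UMIs, stand above all others, of which the highest has 7.

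The same 2 TCM cells carried other inducible transcripts. Together they held 73 Icam1, 66 Vcam1, 72 Sele and 26 Selp UMIs, against 28 Pecam1, 17 Cdh5, 8 Esam and 7 Icam2 UMIs. One of them was gated as arterial. The other, with 7549 UMIs in all, met the markers of more than 1 endothelial subtype. With the 2 cells richest in Sele left out of each library, the ratio was -0.07 (-0.33 to 0.19) for Vcam1 and -0.25 (-0.73 to 0.24) for Selp. With each gene's own highest cell left out of each library, it was 0.08 (-0.18 to 0.34) for Vcam1 and 0.20 (-0.32 to 0.73) for Selp, so neither gene had a direction beyond counting error.

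Selp, stored by endothelium for release to the surface, had 76 UMIs in CM and 100 in TCM. Its level was 1.48 CP100k (1.16 to 1.85) in CM and 1.64 CP100k (1.33 to 1.99) in TCM, with a log2 ratio of 0.15 (-0.30 to 0.60). The 10 highest cells held 78.9% and 79.0% of its UMIs. The groups overlapped within counting error.

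The 5 constitutive genes all had higher levels in TCM. Before thinning, 4 of them were read in at least 66.4% of the endothelial cells of either library, and Jam2 in 29.4% of CM and 35.9% of TCM cells. Pecam1, a homophilic adhesion molecule of cell contacts, summed to 6139 UMIs in CM and 8440 in TCM, with a ratio of 0.21 (0.16 to 0.26). For Cdh5, the cadherin of adherens junctions, the sums were 6439 and 8910, with a ratio of 0.22 (0.17 to 0.27). Esam, a tight junction protein, had 3959 and 5718 UMIs and the highest ratio of the 5, 0.28 (0.22 to 0.34). Jam2 had 772 and 1046 UMIs, with a ratio of 0.19 (0.05 to 0.33). Icam2 had 7117 and 9136 UMIs and the lowest ratio, 0.11 (0.07 to 0.16). Scaling to the endothelial gate markers lowered the ratios to 0.11 for Pecam1, 0.12 for Cdh5, 0.18 for Esam and 0.0074 for Icam2. In thinned cells the ratio was 0.37 for Jam2 and 0.013 for Icam2.

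Cdh5 illustrates the share of cells behind such a sum. Of the thinned endothelial cells, 70.3% in CM and 74.2% in TCM had a Cdh5 UMI, against 1.70% and 0.649% of thinned alveolar macrophage-gated cells, which lack the gene. Before thinning, the alveolar macrophages had median depths of 4387 UMIs in CM and 4307 in TCM.

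Selplg, a leukocyte gene, had 92 UMIs in CM and 104 in TCM endothelial cells, with a log2 ratio of -0.07 (-0.49 to 0.35). Free RNA, estimated from droplets of at most 50 UMIs, would account for 27.0% of these UMIs in CM and 60.5% in TCM. For the other 9 genes the estimate was at most 5.05% of the UMIs in either library.

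Inducible and constitutive genes were then set against each other as sums. The 4 inducible genes summed to 3185 UMIs in CM and 4439 in TCM, with a log2 ratio of 0.23 (0.16 to 0.30). The 5 constitutive genes had 24426 and 33250 UMIs, a ratio of 0.20 (0.17 to 0.22). The difference between the ratios was 0.03 (-0.04 to 0.10), so the inducible genes were not higher than the constitutive genes beyond counting error. Leaving out the 2 cells of each library with most Sele UMIs gave an inducible ratio of 0.17 (0.11 to 0.24) and a difference of -0.02 (-0.09 to 0.05). In cells thinned to 1000 UMIs, which gives each cell the same weight, the inducible ratio was 0.37 (0.23 to 0.50), the constitutive ratio 0.18 (0.13 to 0.23) and the difference 0.19 (0.05 to 0.33). Icam1 supplied most of the inducible UMIs, so the sum follows that gene.

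**Figure D2:**
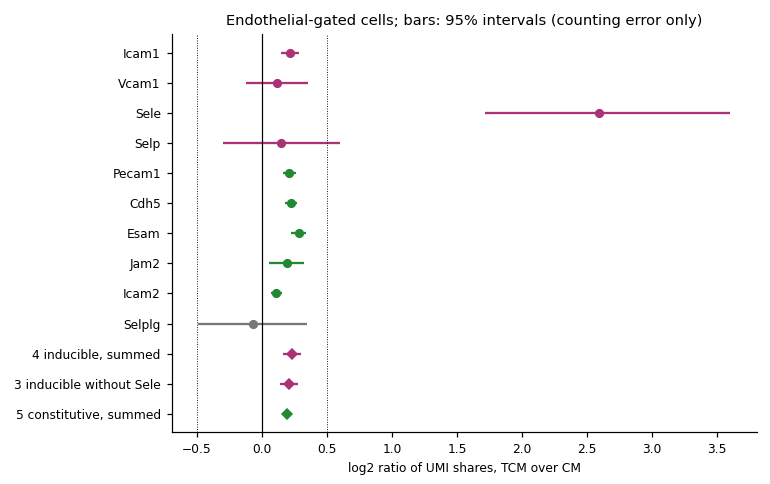
Log2 ratio of UMI shares, TCM over CM (x axis), for each member and for summed groups (y axis) in endothelial-gated cells, with 95% intervals for counting error; dotted lines mark ratios of 0.5 in either direction. The 5 constitutive genes and Icam1 lie between 0.11 and 0.28, and Sele stands apart at 2.59 with a wide interval.

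Over all 11751 genes with at least 20 UMIs in endothelial cells, the median log2 ratio was 0.002, and the median of the 10 members was 0.20. Genes with a ratio of at least 0.5 in either direction were counted as past the fold. Of the 10 members, 1 (Sele) was higher in TCM past this fold, and none was lower, while 6.37% of all genes were higher and 6.34% lower. The members' share is thus near the background, and 1 gene in 10 is no result about the list.

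Depth and other transcripts moved with the libraries, and their part in these ratios was not tested beyond the values given. Markers of neutrophils (10 of 10 detected) summed to 3.64 CP100k in CM and 8.41 CP100k in TCM endothelial cells. B cell markers (12 of 12 detected) fell from 11.1 to 4.30 CP100k, T cell markers (12 of 12) from 9.80 to 5.22, and NK markers (8 of 10) from 8.13 to 2.98. Platelet markers, of interest because platelets carry P-selectin, were at 0.719 and 0.802 CP100k. Classical monocyte markers (7 of 7 detected) summed to 62.7 and 119 CP100k, mostly through Ly6c2 with 2972 UMIs in CM and 6954 in TCM. Of the others, Fn1 was at 224 and 259 UMIs, Ms4a6c at 6 and 34, F13a1 at 5 and 13, Ccr2 at 11 and 13, Ms4a4c at 7 and 9 and Vcan at 0 and 1.

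Endothelial cells were divided by markers into vessel types. General capillary cells numbered 619 in CM and 642 in TCM, aerocytes, the thin capillary cells of gas exchange, 208 and 220, arterial cells 139 and 92, and venous cells 29 and 34. Lymphatic cells, 11 and 8, were too few to describe. A further 697 and 690 cells met the markers of more than 1 subtype, and 72 and 43 cells met those of none. In venous cells 5 of the 10 lymphatic markers were detected, at a sum of 202 CP100k in CM and 254 in TCM. Most of it was Lyve1, at 181 and 236 CP100k, while Prox1, Mmrn1, Ccl21a, Reln and Nts were at 0.

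Vessel types differed strongly in the inducible genes in both libraries. Among cells given a vessel type, Selp was concentrated in veins, with 33.9 CP100k (27 UMIs) in CM and 25.9 CP100k (30 UMIs) in TCM. General capillary cells had 1 and 8 UMIs, aerocytes 2 and 0, and arterial cells 5 and 2. Without the highest cell of each library, 10 CM and 22 TCM venous Selp UMIs remained. Cells with markers of more than 1 subtype held 40 of the 76 CM and 57 of the 100 TCM endothelial Selp UMIs. Vcam1 was also highest in veins, at 70.2 CP100k in CM and 52.6 CP100k in TCM, followed by arteries at 19.7 and 29.4 CP100k. In general capillary cells and aerocytes it lay between 0.909 and 1.31 CP100k. In CM, 36 of the 56 venous Vcam1 UMIs came from 1 cell. Cells with markers of more than 1 subtype held 111 of the 255 CM and 179 of the 328 TCM endothelial Vcam1 UMIs. With no lead margin between subtypes, aerocytes had 3.42 CP100k of Vcam1 in CM and 3.70 in TCM. Veins were still highest under that setting, at 54.6 and 61.2 CP100k.

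Icam1 ran in a different order. Aerocytes had 97.9 CP100k in CM and 92.3 in TCM, venous cells 92.8 and 155, general capillary cells 50.5 and 61.7, and arterial cells 40.8 and 73.9. In CM, aerocytes and veins could not be ordered within counting error.

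Among the constitutive genes, Icam2 was highest in aerocytes, at 268 CP100k in CM and 296 in TCM, and between 69.9 and 139 CP100k in the other types. Jam2 was lowest where Icam2 was highest: aerocytes had 3.23 and 1.82 CP100k, general capillary cells 14.0 and 17.9, arterial cells 29.6 and 35.1, and venous cells 47.7 and 56.1. Cdh5 lay between 77.6 and 172 CP100k and Esam between 57.2 and 116, both highest in aerocytes. Pecam1 varied least, from 89.1 to 163 CP100k.

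**Figure D3:**
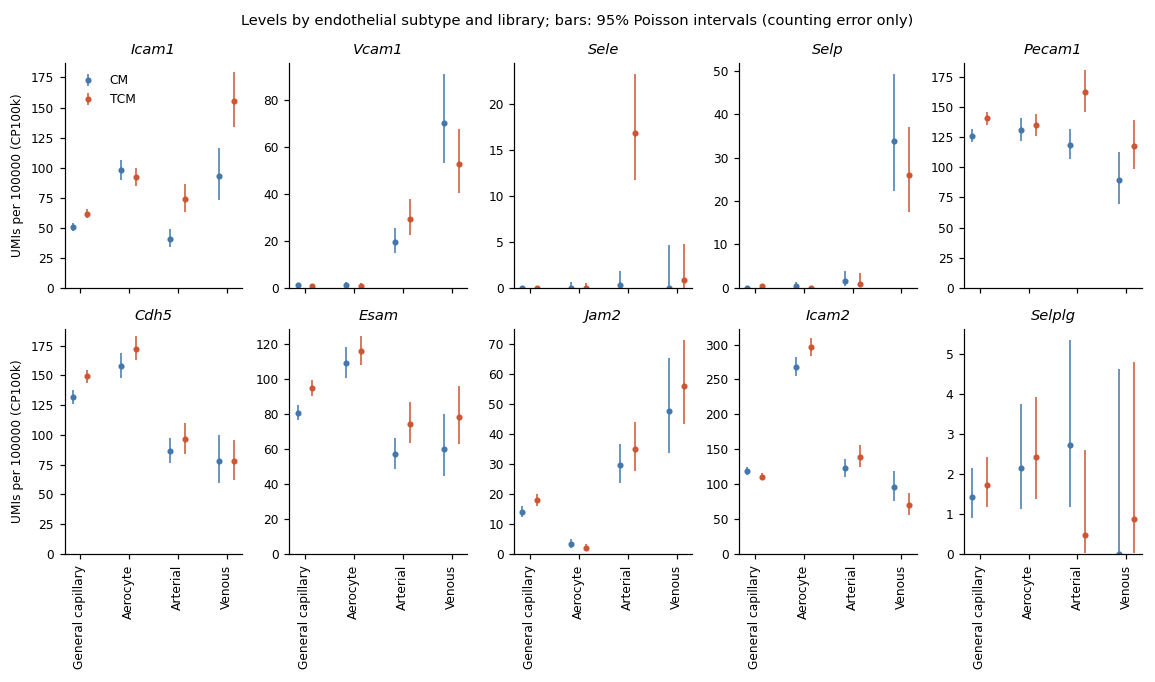
UMIs per 100000 (y axis) of each member in 4 endothelial subtypes (x axis), for CM and TCM, with 95% Poisson intervals for counting error. Selp and Vcam1 are highest in venous cells in both libraries, Icam2 in aerocytes, and Jam2 is lowest in aerocytes.

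The ratio of TCM to CM also differed by vessel type. In arterial cells Icam1 rose from 120 UMIs among 139 cells to 158 UMIs among 92 cells, a log2 ratio of 0.86 (0.50 to 1.21), which was 0.96 (0.57 to 1.36) without the highest cell of each library. Arterial Vcam1 had a ratio of 0.58 (0.04 to 1.12), and 0.37 (-0.38 to 1.11) without those cells. Arterial Sele rose from 1 to 36 UMIs, of which 35 were in 1 cell. With the arterial cell richest in Sele left out of each library, Vcam1 turned to -0.38 (-1.05 to 0.27). Icam1 was then at 0.78 (0.42 to 1.14). With all arterial cells kept, 8 members had at least 20 UMIs. Of these, 3 (Icam1, Vcam1 and Sele) were higher past the fold and 0 were lower, beside 17.3% of all genes higher and 13% lower there. Arterial Pecam1 had a ratio of 0.45 (0.24 to 0.67), and Cdh5 one of 0.16 (-0.12 to 0.43). The arterial difference between inducible and constitutive sums was 0.66 (0.35 to 0.96). It was 1.07 (0.46 to 1.69) in thinned cells and 0.19 (-0.14 to 0.52) with the arterial cell richest in Sele left out of each library. Markers of other vessel types also moved in the arterial gate, and their part was not tested: venous markers (10 of 11 detected) went from 120 to 181 CP100k, lymphatic markers (7 of 10) from 123 to 163 and general capillary markers (7 of 8) from 370.1 to 439.9, beside 962 to 1126 CP100k for the arterial markers (10 of 10).

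In venous cells Icam1 summed to 74 UMIs in CM and 180 in TCM, with a ratio of 0.74 (0.34 to 1.15). Its interval included 0 without the highest cell of each library, at 0.42 (-0.02 to 0.87). The venous ratios of Vcam1, -0.42 (-0.96 to 0.13), and Selp, -0.39 (-1.19 to 0.42), included 0. Both turned positive without the highest cell of each library, at 0.51 (-0.29 to 1.35) for Vcam1 and 0.57 (-0.57 to 1.81) for Selp.

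General capillary cells had an Icam1 ratio of 0.29 (0.16 to 0.42), beside 0.15 (0.07 to 0.24) for Pecam1, 0.18 (0.10 to 0.26) for Cdh5, 0.23 (0.13 to 0.33) for Esam, 0.35 (0.11 to 0.60) for Jam2 and -0.10 (-0.19 to -0.01) for Icam2. Of the 8 members with enough UMIs, 0 were higher and 0 lower past the fold, beside 9.05% of all genes higher and 7.92% lower. The inducible minus constitutive difference was 0.16 (0.02 to 0.30), and in thinned cells 0.17 (-0.09 to 0.44). Aerocytes had an Icam1 ratio of -0.08 (-0.25 to 0.08), which was 0.004 (-0.17 to 0.18) without the highest cell of each library. Their inducible minus constitutive difference was -0.20 (-0.38 to -0.02), or 0.07 (-0.28 to 0.43) in thinned cells. Of the 7 members with enough UMIs in aerocytes, 0 were higher and 1 (Jam2, 18 to 12 UMIs) was lower past the fold, beside 11.1% of all genes higher and 11.9% lower. The Jam2 ratio of -0.83 (-2.01 to 0.31) was -0.06 with no lead margin between subtypes, which ends that call.

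Outside the endothelium, Icam1 had its highest level in AT1 cells, the flat epithelial cells of the alveolus, at 164 CP100k in CM and 164 CP100k in TCM, with a log2 ratio whose interval ran from -0.10 to 0.10. AT2 cells, which make surfactant, had 40.2 CP100k in CM and 49.4 CP100k in TCM, a ratio of 0.30 (0.13 to 0.47). Fibroblasts had 35.0 and 31.2 CP100k, a ratio of -0.17 (-0.30 to -0.04). Icam1 was lower in TCM in dendritic cells (48 CM and 52 TCM cells), at 37.9 and 24.0 CP100k (-0.66, interval -1.06 to -0.27), and in neutrophils, where 79 UMIs in CM and 202 in TCM gave 23.3 and 8.41 CP100k (-1.47, interval -1.85 to -1.08). Of the neutrophil Icam1 UMIs in CM, 60.8% lay in 10 cells.

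Vcam1 was highest in fibroblasts, at 38.4 CP100k in CM and 34.9 CP100k in TCM. Interstitial macrophages followed with 35 and 46 UMIs, the first of which made 8.77 CP100k (6.11 to 12.2) in CM and lay above the endothelial class as a whole. Esam was found in AT1 cells at 29.9 and 31.9 CP100k and in pericytes at 13.7 and 18.1 CP100k. Jam2 was found in fibroblasts at 5.87 and 6.31 CP100k. Cdh5 and Icam2 stayed at or below 8.89 CP100k in every other named class of at least 50 cells.

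Selp outside the endothelium was found mainly in neutrophil-gated cells of TCM. They had 128 UMIs in 107 of 1415 cells, against 5 UMIs in 5 of 234 CM cells. The level was 1.48 CP100k (0.479 to 3.45) in CM and 5.33 CP100k (4.44 to 6.33) in TCM, with a ratio of 1.85 (0.59 to 3.50), and no cell held more than 3 UMIs. In cells thinned to 1000 UMIs, 1.23% (0.149 to 4.36%) in CM and 5.34% (4.09 to 6.83%) in TCM had a Selp UMI, against 0 of 522 CM and 0 of 259 TCM B-gated cells, which allows shares of up to 0.575% and 1.16%. Selp is also a platelet gene, and a UMI of any of 10 platelet genes was found in 1 of the 107 TCM neutrophils with a Selp UMI and in 17 of the 1308 without. Cells between classes held 7 Selp UMIs in CM and 25 in TCM, a ratio of 1.99 (0.74 to 3.45).

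Selplg marked leukocytes. NK cells had 133 CP100k in CM and 144 in TCM, T cells 60.0 and 60.9, and dendritic cells 34.7 and 40.1. Neutrophils had 87.4 CP100k in CM and 137 in TCM, with a ratio of 0.65 (0.48 to 0.82). The neutrophil gate markers as a sum moved by nearly the same amount, 0.59, and Selplg scaled to them had a ratio of 0.06. Classical monocytes went the other way, from 46.2 to 30.4 CP100k (-0.60, interval -0.89 to -0.32).

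**Figure D4:**
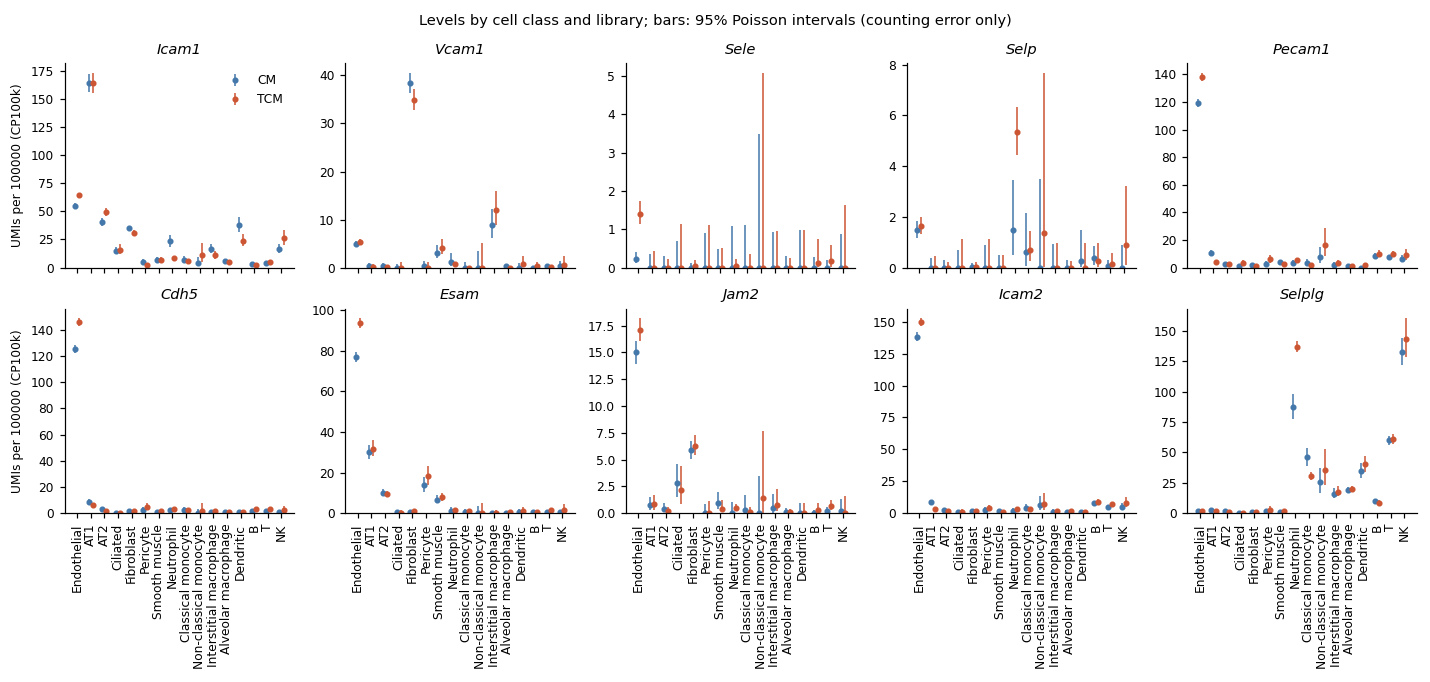
UMIs per 100000 (y axis) of each member in lung cell classes of at least 50 cells over both libraries (x axis), for CM and TCM, with 95% Poisson intervals for counting error. Pecam1, Cdh5 and Icam2 are highest in endothelial cells, Icam1 in AT1 cells, Vcam1 in fibroblasts, Selp in TCM neutrophils and Selplg in NK cells and neutrophils.

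NF-κB response genes other than the members were used to order the endothelial cells. In thinned cells, the number of 16 such genes with a UMI ranged from 0 to 3 or more. The genes differed widely in level, so the steps rest largely on the most abundant. Before thinning, Nfkbia had 6888 UMIs in CM and 9298 in TCM and Irf1 3068 and 3604, while Csf3 had 0 in both. Icam1 was at 20.4 CP100k in CM cells with 0 of them, 29.7 with 1, 64.6 with 2 and 127 with 3 or more. In TCM the levels were 22.1, 41.6, 78.9 and 152 CP100k. Intervals of consecutive steps did not overlap in TCM, and in CM only the first step overlapped. Vcam1 ran from 1.77 to 9.76 CP100k in CM and from 1.77 to 13.3 in TCM. Sele UMIs were found only with 3 or more of the genes in CM (4 UMIs). In TCM they were found with 2 (10 UMIs) and with 3 or more (8 UMIs). Selp ran from 0 to 3.41 CP100k in CM and from 0 to 4.17 in TCM, on at most 10 UMIs per step. Pecam1 ran the other way, from 136 to 110 CP100k in CM and from 153 to 124 in TCM, and Icam2 from 169 to 128 and from 155 to 121. Cdh5 ran from 142 to 119 and from 164 to 135. Esam was at 80.1, 74.0, 73.0 and 74.1 CP100k over the steps in CM, and ran from 103 to 82.5 in TCM. Jam2 was at 11.9, 15.2, 20.8 and 16.6 CP100k in CM, highest with 2 of the genes. In TCM Jam2 ran upward from 16.4 to 23.3 CP100k, and its intervals overlapped in both libraries. Cells with 3 or more of the genes made up 15.7% of CM and 17.2% of TCM cells. These are descriptions across cells of 1 library each, and the steps share cells of all vessel types.

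**Figure D5:**
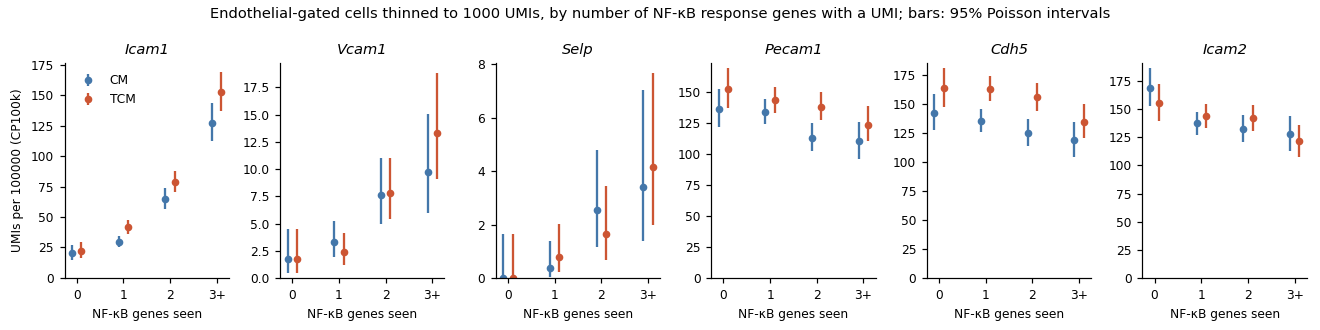
UMIs per 100000 (y axis) of 6 members in endothelial cells thinned to 1000 UMIs, by the number of NF-κB response genes with a UMI (x axis), for CM and TCM, with 95% Poisson intervals for counting error. Icam1 runs from 20.4 to 127 in CM and from 22.1 to 152 in TCM, while Pecam1 and Icam2 run downward.

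The same NF-κB genes were also compared between the libraries, and counts past the fold for this and the following lists are to be read against the 6.37% of all endothelial genes that were higher and the 6.34% that were lower. Of the 14 with at least 20 UMIs, 0 were higher past the fold, 1 lower and 13 within it, with a median log2 ratio of 0.05. Ccl2, a monocyte chemokine, was lower at -1.42 (-1.99 to -0.87). Bcl3 was at 0.49 and Icosl, on 11 and 18 UMIs, at 0.46 (-0.70 to 1.69). Nfkbia, the inhibitor that NF-κB induces, was at 0.18 (0.14 to 0.23) and Irf1 at -0.02.

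Of 22 other junction genes with enough UMIs, 1 was higher and 0 lower past the fold, and 21 were within it, with a median of 0.02, a share near that of all genes. The gap junction gene Gja1 was the higher one, at 0.73 (0.15 to 1.34) on 38 and 75 UMIs. Cdh2, on 13 and 11 UMIs, was at -0.49 (-1.79 to 0.78). Cgnl1 was at -0.45, Magi1 at 0.44 and Cldn5, the main claudin of endothelium, at -0.01 (-0.05 to 0.02).

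Among 12 other endothelial adhesion and rolling genes with enough UMIs, 1 was higher, 3 were lower and 8 were within the fold, with a median of 0.03, where 6.34% of all genes were lower. Thbd, the thrombomodulin gene, was higher at 0.58 (0.52 to 0.65). Alcam was lower at -0.59 (-1.15 to -0.05), on 66 UMIs in CM and 52 in TCM. Procr, the protein C receptor, was lower at -0.64 (-1.12 to -0.15), on 85 and 65 UMIs. Icam4, at -0.80 on 19 and 13 UMIs, passed the fold with an interval that included 0 (-1.94 to 0.30). Vwf, which shares storage granules with P-selectin, was at 0.11 (-0.00 to 0.22).

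Leukocyte integrins and selectin partners, read at low levels in endothelial cells, included 3 lower and 9 within the fold out of 12. Spn was at -1.34 (-2.33 to -0.42), Itga4 at -0.53 (-1.01 to -0.06), Itgb7 at -0.52 (-1.09 to 0.05) and Itgav at 0.37 (-0.05 to 0.79). Immediate early genes and genes known to respond to tissue dissociation had a median of -0.13, with 2 lower and 10 within the fold out of 12, again beside 6.34% of all genes lower. Hspa1a was lower at -1.21, Hspa1b at -0.81, Atf3 was at -0.37 and Fosb at 0.29.

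The genes most like each member were found by Pearson correlation of log2 levels over 31 class or subtype points, among 12758 genes. These points share libraries and depth, so r is a description. A point needed at least 50 cells in a library, so venous cells, 29 in CM and 34 in TCM, gave none. Selp, Vcam1 and Jam2, highest in veins among the vessel types, were thus compared without them. Pecam1 was most like Icam2 (r = 0.98), Calcrl (0.97) and Cldn5 (0.96), and Icam2 most like Pecam1, Calcrl and Cdh5 (0.96 to 0.98). Cdh5 was most like Ramp2, Cldn5 and Egfl7 (all r = 0.99). Calcrl, Ramp2 and Egfl7 had been used for the gate. Esam was most like Nbea, Tjp1 and Galnt18 (0.95 to 0.96) and Jam2 most like Scube1 (0.95), Dchs1 and Fam181b (both 0.92). Icam1 was most like Afdn and Tspan8 (both 0.87) and Lurap1l (0.84), and Vcam1 most like Cmklr1 (0.87), Mgp (0.84) and St8sia2 (0.83). Selp was most like Cmip, Entpd3 and 2310001H17Rik (0.80 to 0.81), and Selplg most like Ptprc, Itgb2 and Fmnl1 (all 0.94). For Sele, the genes Spag16, Fam216b and Ccdc162 (0.91 to 0.97) rest on few Sele UMIs.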

How the data were processed

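Single-cell RNA of whole lung was measured in 2 libraries, 1 per group. The authors prepared 5′ droplet libraries and mapped reads with Cell Ranger (version 4 in the file header) to mm10 (GRCm38.p6). Seurat is also named in the submitters' processing notes. The deposited matrices hold raw UMI counts per gene for 737280 barcodes, with no normalization or cell annotation, so classes were rebuilt here.

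Droplets with at least 500 UMIs, 200 genes and at most 10% mitochondrial UMIs were kept. A cell took the class with the highest share of its markers detected, if at least 3 were detected and the share led the next class by 1.5 times. Endothelial subtypes needed 2 markers and the same lead. UMIs were summed by class and library and given per 100000 UMIs (CP100k). Ratios are TCM over CM on the log2 scale, a sum of 0 being replaced by 3 counts. Poisson, Clopper-Pearson and conditional binomial intervals, each at 95%, cover counting error only. UMI counts were summed, so no pseudocount entered the ratios. In genes with at least 20 UMIs over both libraries, a log2 ratio of 0.5 was the fold counted. Correlations used log2(CP100k + 1), genes with at least 100.0 UMIs and units of at least 50 cells in a library. Doublets were scored with Scrublet in scanpy 1.11.5, which marked 0 CM and 2 TCM cells and so had not worked. The 6% of cells with the top scores were left out as an alternative only. Clusters for another alternative came from leidenalg 0.10.2. Free RNA was profiled in droplets of at most 50 UMIs, and its amount, from 7 erythroid and club cell genes in lymphocytes, was 133 UMIs per CM and 275 per TCM cell. Coordinates came from GENCODE vM21 and promoters from RefSeq, both on GRCm38. The ratio and its interval were tested on simulated Poisson sums with numpy 2.4.6 and scipy 1.17.1. Gating, thinning and free RNA were not simulated, and Poisson draws cannot show how the intervals behave where UMIs gather in few cells.

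The members and gene lists were chosen with earlier results of these data known. All members were described. In the other lists the up to 4 genes with the largest absolute ratio were named, plus Nfkbia, Irf1, Cldn5 and Vwf, and the 3 genes most like each member. Other genes were named after their values were seen.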

Additional observations from a re-analysis of the deposited data

Results flagged for a closer look

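Several members were higher in TCM in some cell classes and lower in others, past a log2 ratio of 0.5 and with intervals that did not include 0. The differences between classes were not tested. Icam1 was higher in NK cells (0.64) and lower in neutrophils (-1.47) and interstitial macrophages (-0.62). Free RNA as estimated would bring 95.8 of the 202 Icam1 UMIs of TCM neutrophils and 7.12 of the 79 of CM neutrophils. Selplg was higher in neutrophils (0.65) and lower in classical monocytes (-0.60) and AT2 cells (-1.16), the last on 22 and 13 UMIs. In AT2 cells the free RNA estimates were 4.15 of the 22 CM and 10.55 of the 13 TCM Selplg UMIs.

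Icam2 was higher in T cells (0.61) and lower in AT1 cells (-1.25) and AT2 cells (-0.80). The free RNA estimates were 23.7 of 88 CM and 41.8 of 93 TCM UMIs in T cells, 11.1 of 87 and 20.02 of 30 in AT1 cells, and 10.2 of 33 and 22.8 of 25 in AT2 cells. Cdh5 was higher in B cells (1.26) and T cells (0.82) and lower in AT1 cells (-0.53). For AT1 cells the estimates were 13.7 of 90 CM and 24.42 of 51 TCM Cdh5 UMIs. The Cdh5 sums in lymphocytes, 18 and 24 UMIs in B cells and 32 and 39 in T cells, were close to or below the free RNA estimates of 27.6 and 32.8 in B cells and 29.3 and 50.9 in T cells.

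Droplets of at most 50 UMIs, which entered the comparisons above only through the free RNA estimates, held a larger share of Pecam1 and Esam in TCM than in CM. The log2 ratio was 0.40 (0.12 to 0.69) for Pecam1, on 226 CM and 185 TCM UMIs, and 0.44 (0.01 to 0.86) for Esam, on 104 and 87 UMIs, as shares of 696980 and 431071 UMIs.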

How the results depend on the processing

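Settings added after seeing the data were the subtype gate with no lead margin, leaving out Sele or the 2 cells with most Sele UMIs of TCM or of each library, and every alternative for neutrophils. In endothelial cells the inducible ratio of 0.23 moved to 0.13 when scaled by the gate markers, 0.43 as a mean over cells, 0.37 in thinned cells and 0.15 without the 2 TCM cells. The constitutive ratio of 0.20 moved to 0.092 when scaled by the gate markers and 0.23 after subtraction of free RNA. The difference of 0.03 moved to 0.23 as a mean over cells, 0.19 in thinned cells and -0.042 without the 2 TCM cells, and was -0.03 with at most 5% mitochondrial UMIs. The Sele ratio of 2.59 was -0.024 without the 2 TCM cells, a one-sided removal of the highest cells, and 2.56 with 2 cells left out of each library. The ratio of Icam2 in general capillary cells turned from -0.10 to 0.0056 with no lead margin between subtypes. The share of all genes past the fold, 12.7%, was 21.6% with at least 5 UMIs in place of 20. Of the alternative values for endothelial cells, 136 stayed within the interval of the main value, 22 moved outside it and 1 reversed. Pecam1 ranged from 0.11 to 0.24, Cdh5 from 0.12 to 0.26, Esam from 0.18 to 0.32 and Icam1 from 0.11 to 0.46, all above 0. Jam2 ranged from 0.085 to 0.37 and Icam2 from 0.0074 to 0.15. The ranges of Vcam1 (-0.21 to 0.37), Selp (-0.28 to 0.59), Selplg (-0.91 to 0.18) and Sele (-0.02 to 3.14) included 0. In neutrophils Icam1 ranged from -2.17 to -1.33 and Selp from 1.27 to 2.37. Apart from thinning, in which cells have equal depth, the causes were not tested. With 1 library per group, no replicate could be left out. No paired analysis was possible because each group had 1 library. Depth limits Sele, Selp and Vcam1, which rest on few cells.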
